A study of Homo sapiens and Mus musculus with 7 samples.

Results

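The genes described are 48 members of the cell cycle machinery, 24 of DNA replication and 23 of mitosis, with the G1 cyclin CCND1 beside them. They were taken by gene symbol: a probe set counted where its annotation held exactly 1 symbol and that symbol was on the list, with case ignored for the mouse. All 48 genes were found on the human array, with 102 of its 54613 probe sets, and 46 were found on the mouse array, with 106 of 45037. CCNB1 and CHAF1A had no such mouse probe set, so 46 members were in both tables, 23 of replication and 22 of mitosis with CCND1. The brightest probe set on average stood for each gene, and 19775 human and 18193 mouse genes could be read this way.

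Expression had been measured in 3 systems with reduced or deleted Fas (CD95, the surface receptor through which Fas ligand can start apoptosis). HeyA8, an ovarian cancer line, carried a stable FAS hairpin, shRNA4 or shRNA6, or the lentiviral vector control pLKO. HepG2, a liver cancer line, carried shRNA6 or pLKO. Liver came from Fas knockout and wild-type mice, labelled as males of strain C57/BL6 aged 2 months. Each of the 7 groups was 1 array, the 2 HeyA8 knockdowns share 1 control array, and the sources used here do not say whether a line was a clone, how the mouse allele was made or whether animals were pooled. Signals are MAS5 intensities on a linear scale, and a ratio is a difference of log2(signal + 12.6) in human and of log2(signal + 20.5) in mouse, which understates the differences of dim genes.

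The targeted gene was lower in every knockdown and in the knockout. FAS gave a signal of 1184 with shRNA4 and 856 with shRNA6 in HeyA8, against 2104 in the pLKO control, which is 56.3% and 40.7% of that control. It gave 631 in HepG2 with shRNA6, against 1087 with pLKO (58.1%), so FAS transcript was left in all 3 knockdown arrays although the labels also call these cells knock-out. Mouse Fas gave 169 in the knockout liver and 560 in the wild-type liver (30.3%), and whether its probe set lies in the deleted segment is not known here. Hepatocyte markers set HepG2 and liver apart from HeyA8, as their labels do. Of 7 measured hepatocyte genes 7 lay above the array median on both HepG2 arrays and 0 to 1 on the HeyA8 arrays, and 6 of 6 did so in both mouse livers. Of 7 mesenchymal genes 7 lay above it on the HeyA8 arrays and 4 to 5 on the HepG2 arrays. They did not set liver apart, with 7 of 7 above the median in both mouse livers. Markers of ovarian epithelium did not separate the lines, with 6 of 7 above the median on each HeyA8 array and 5 of 7 on each HepG2 array.

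Cells copy their DNA in S phase and divide it in M phase, and the genes for these steps are transcribed in waves. Replication genes such as those of the MCM helicase are induced at the entry into S phase by E2F factors once cyclin D and cyclin E kinases have inactivated the retinoblastoma proteins. Mitosis genes such as those of cyclin B, the kinesins and the spindle checkpoint are induced later, by the MuvB complex with B-MYB and by FOXM1, through the CHR element in their promoters. In cells at rest the DREAM complex holds both groups down, and the CDK inhibitor p21, encoded by CDKN1A, promotes that state. Most hepatocytes of an adult liver are at rest, whereas cultured cancer lines divide continuously.

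The promoters of the members showed the motifs of these regulators. RefSeq (GRCh38.p14) windows of 300 bases around the gene start were found for 21 replication members (27 windows) and 18 mitosis members (20 windows). An E2F motif (TTTCCCGC, TTTGCCGC, TTTCGCGC or TTTGGCGC, either strand) was in 13 of 27 replication windows (48.1%) and 4 of 20 mitosis windows (20%), against 3.31% of all 35116 windows. A CHR motif (TTTGAA or TTCGAA, either strand) was in 14 of 20 mitosis windows (70%) and 2 of 27 replication windows (7.41%), against 16.4% of all windows. The CCAAT box, which often lies upstream of a CHR, was in 18 of 20 mitosis windows (90%) and 19 of 27 replication windows (70.4%), against 34.6% of all windows. GATAA, a motif searched for comparison, was in 0 and 1 of these windows, against 22.7% of all windows. In the 21490 windows of genes on the human array the shares were 4.07% for E2F, 13.6% for CHR, 34.5% for CCAAT and 18.5% for GATAA. For mitosis genes outside the 48, GATAA was in 8 of 40 windows (20%), and for replication genes outside them in 2 of 41 (4.88%). Windows were not matched for base composition. A match describes these letters and is not evidence of a bound site. The 200 bases upstream of the start are shown for 4 members, namely those with the largest difference between the cell lines among mitosis genes and among replication genes lower in HeyA8 (CDC20 and CCNE1), the replication member with the most E2F matches (MCM6) and the proliferation marker MKI67. Capitals mark E2F, CHR and CCAAT matches, read 5′ to 3′ along the gene.
CDC20 (chr1:43358781-43358980, + strand): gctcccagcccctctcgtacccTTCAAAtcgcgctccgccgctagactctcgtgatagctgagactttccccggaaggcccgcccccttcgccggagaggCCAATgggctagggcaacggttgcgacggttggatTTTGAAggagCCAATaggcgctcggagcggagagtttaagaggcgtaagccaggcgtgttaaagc
MKI67 (chr10:128126424-128126623, - strand): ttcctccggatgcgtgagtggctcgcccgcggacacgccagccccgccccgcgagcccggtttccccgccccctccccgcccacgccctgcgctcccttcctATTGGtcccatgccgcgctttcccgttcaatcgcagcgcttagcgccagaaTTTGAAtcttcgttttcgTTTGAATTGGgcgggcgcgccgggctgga
MCM6 (chr2:135876444-135876643, - strand): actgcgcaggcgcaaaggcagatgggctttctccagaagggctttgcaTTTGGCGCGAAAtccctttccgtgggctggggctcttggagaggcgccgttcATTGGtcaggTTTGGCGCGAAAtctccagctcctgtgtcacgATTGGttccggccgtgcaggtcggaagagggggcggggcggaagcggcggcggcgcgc
CCNE1 (chr19:29811791-29811990, + strand): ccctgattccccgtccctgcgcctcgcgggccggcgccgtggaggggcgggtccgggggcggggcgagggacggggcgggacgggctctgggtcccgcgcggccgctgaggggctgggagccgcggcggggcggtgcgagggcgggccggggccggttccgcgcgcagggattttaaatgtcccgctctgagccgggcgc
The CDC20 stretch held CHR matches starting 178 and 65 bases before the gene start, each followed by a CCAAT match. In MKI67 the CHR matches started 47 and 29 bases before the start, and the nearer one overlapped a CCAAT match on the other strand. MCM6 held 4 E2F matches in 2 overlapping pairs, 1 of each pair on either strand, and CCNE1 held no match in this stretch.

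In the 2 cancer lines nearly all members had high signals, and none differed by 2-fold after FAS knockdown. On the HeyA8 arrays 45 of 48 members lay above the array's 75th percentile, and on the HepG2 arrays 47 of 48, against 37.5% to 38.3% of all genes per array. Signals also depend on the probes, so a level does not rank one gene's transcript above another's. With 1 array per group a single comparison has no replicate check, so members are counted by size, at least 2-fold. No member reached 2-fold in HeyA8 with shRNA4 (background 2.37% of 12175 genes higher and 2.38% lower), in HeyA8 with shRNA6 (2.02% higher and 2.21% lower of 12152) or in HepG2 with shRNA6 (2.65% higher and 2.56% lower of 12167). The size count is set mostly by dim genes. Genes are called bright where a compared array put them over its 75th percentile. Among these, 0.730%, 0.393% and 0.887% reached 2-fold either way in these comparisons. The median size of the log2 ratio over the 48 members was 0.11, 0.10 and 0.12, against 0.16, 0.12 and 0.12 over all bright genes.

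**Figure D1:**
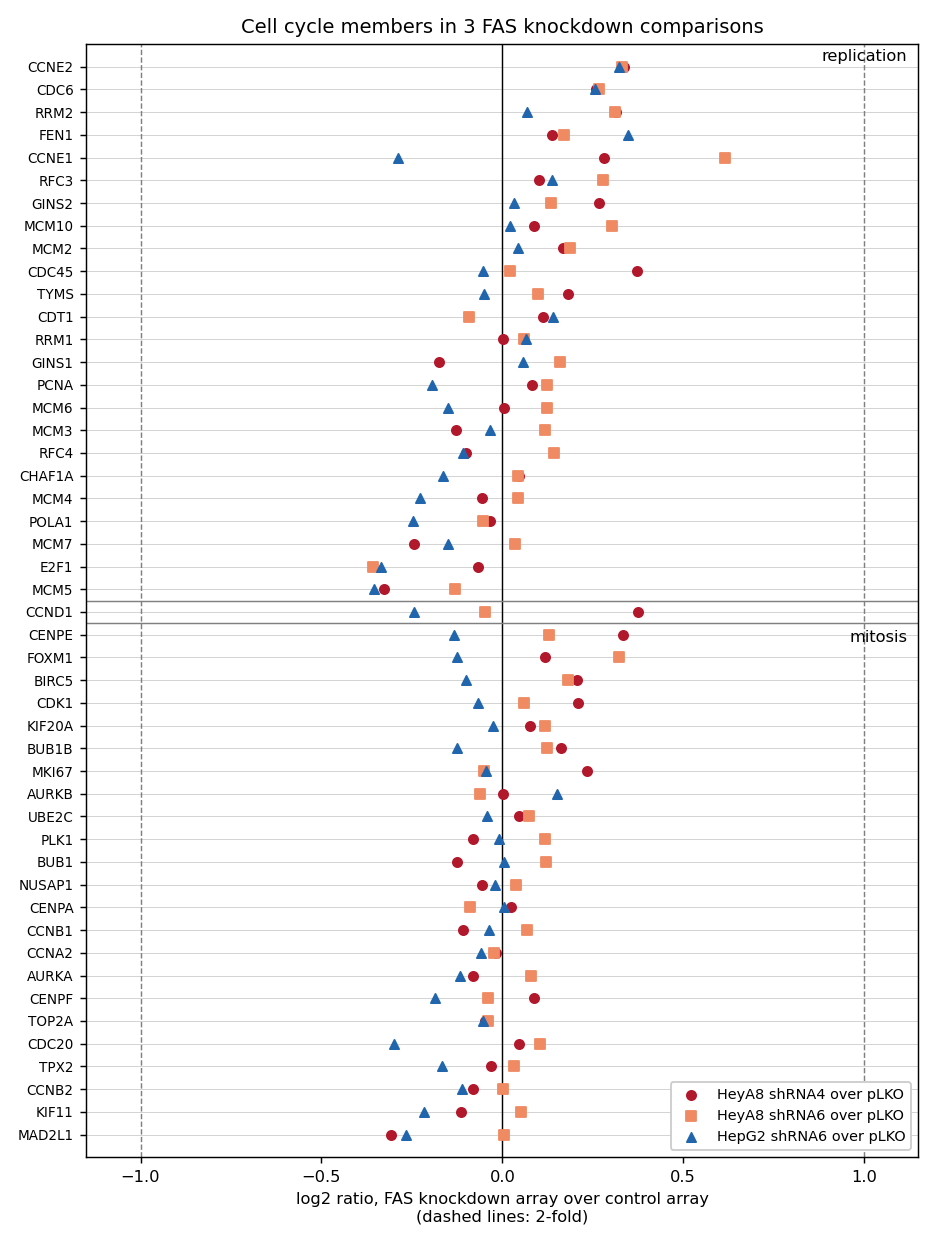
Log2 ratio (x axis) of each of the 48 members (y axis) in 3 comparisons of a FAS knockdown array with its vector control array, with replication members at the top, CCND1 in the middle and mitosis members below. All points lie inside the 2-fold lines, CCNE2 and CDC6 show nearly the same ratio in all 3 comparisons, and the blue triangles of HepG2 lie left of 0 for 20 of 23 mitosis members.

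In HeyA8 with shRNA4 the replication members had a median log2 ratio of 0.09, with 16 above and 8 below 0, and the mitosis members one of 0.00, with 12 above and 11 below, while the median of all genes was 0.03. Over all 12175 genes that passed the filter on low signal 6503 lay above 0 and 5672 below. The replication members with the largest ratios were CDC45 (0.37), CCNE2 (0.34), MCM5 (-0.33), RRM2 (0.31) and CCNE1 (0.28). CDC45 is a subunit of the replicative helicase, RRM2 the small subunit of ribonucleotide reductase, and the E cyclins drive the entry into S phase. The mitosis members with the largest ratios were CENPE (0.33), MAD2L1 (-0.31), MKI67 (0.23), CDK1 (0.21) and BIRC5 (0.21). CENPE is a kinetochore motor, MAD2L1 a spindle checkpoint protein, CDK1 the mitotic kinase and BIRC5 (survivin) a subunit of the chromosomal passenger complex. The MKI67 ratio was carried by 1 probe set: the other 3 gave -0.04, -0.13 and 0.05.

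In HeyA8 with shRNA6, measured against the same control array, the replication members had a median log2 ratio of 0.12, with 20 above and 4 below 0, and the mitosis members one of 0.06, with 17 above and 6 below, while the median of all genes was 0.01. Over all 12152 genes that passed the filter 6224 lay above 0 and 5928 below. The largest ratio of any member was that of CCNE1, 0.62, from a signal of 615 with shRNA6, against 397 with pLKO. With the mean of its probe sets in place of the brightest, the CCNE1 ratios were 0.27 with shRNA6, 0.09 with shRNA4 and -0.0020 in HepG2. Read from the brightest probe sets, CCNE1 was followed among bright replication members by CCNE2 (0.33), RRM2 (0.31), MCM10 (0.30) and RFC3 (0.28), a subunit of the clamp loader. FOXM1, the transcription factor of mitosis genes, had the largest ratio of its group at 0.32, read from a probe set of the kind that can cross-hybridise, and BIRC5 (0.18), CENPE (0.13), the spindle checkpoint kinases BUB1B (0.12) and BUB1 (0.12) came next. Set against each other, the hairpins differed by a median log2 ratio of -0.04 in both groups of members (shRNA4 over shRNA6), and no member differed by 2-fold (background 2.74% of 12242 genes higher and 2.26% lower). CCND1, the cyclin D1 that links growth signals to the cell cycle, had the largest hairpin difference at 0.42, with signals of 8281 with shRNA4, 6170 with shRNA6 and 6377 with pLKO.

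In HepG2 most mitosis members lay below 0, while the replication members were split much like all genes. The replication members had a median log2 ratio of -0.04, with 11 above and 13 below 0, and the mitosis members one of -0.07, with 3 above and 20 below, while the median of all genes was -0.01. Over all 12167 genes that passed the filter 5876 lay above 0 and 6291 below. When the arrays were scaled to equal medians, the median of all genes moved to -0.12 and that of the mitosis members to -0.18. Such scaling multiplies each array by 1 factor and shifts all ratios nearly alike. It therefore cannot check the gap of 0.06 between the mitosis members and all genes. The largest ratios among bright replication members were those of MCM5 (-0.36), FEN1 (0.35), CCNE2 (0.32), CCNE1 (-0.29) and CDC6 (0.26). Among mitosis members they were those of CDC20 (-0.30), an activator of the anaphase-promoting complex, MAD2L1 (-0.27), KIF11 (-0.22), CENPF (-0.19) and TPX2 (-0.17), of which KIF11 and TPX2 build the spindle. With other pseudocounts, scalings and probe set rules the CENPF ratio ran from -0.30 to 0.0041, while those of CDC20, MAD2L1, KIF11 and TPX2 stayed below 0. CCND1 gave 3886 with shRNA6 and 4608 with pLKO, a log2 ratio of -0.25.

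Different probe sets of 1 gene often gave ratios of opposite sign. Of the 48 other member probe sets that passed the filter on low signal, 27 had the sign of the gene's main probe set in HeyA8 with shRNA4, 29 in HeyA8 with shRNA6 and 32 in HepG2. Over the 96 member probe sets that passed the filter 0 reached 2-fold in HeyA8 and 2 did in HepG2, both lower and both dim: an AURKA probe set gave 60.2 with shRNA6 and 135 with pLKO (log2 ratio -1.02), and a GINS2 probe set gave 33.8 and 88.3 (-1.12). The main probe sets of these genes gave -0.12 and 0.03.

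E2F1, the founding member of the E2F family, showed such a disagreement. Its main probe set gave 335 with shRNA4 and 271 with shRNA6 in HeyA8, against 352 with pLKO, and 288 with shRNA6 in HepG2, against 367 with pLKO. These are log2 ratios of -0.07, -0.36 and -0.34. Its other probe set gave 178 and 171 in the HeyA8 knockdowns, against 129 in the control (0.42 and 0.37), and 241 in HepG2 with shRNA6, against 269 (-0.15). The direction in HeyA8 thus turned with the probe set, and that in HepG2 did not.

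The fit over all 5 human arrays, with the cell line as a term, asked which members shifted together in the 3 knockdowns. It called 0 of 13936 genes at an adjusted p of 0.05 (limma with Benjamini-Hochberg adjustment, background 0%; 568 genes had an unadjusted p under 0.05), and hence 0 of 48 members. Labels do not say that these samples are separate cultures of 1 group, and the spread in this fit is that between the hairpins and between the lines, which may be technical. Unadjusted p was under 0.05 for 5 members, all of replication and all with an adjusted p of 0.991: CCNE2 (log2 effect 0.33 ± 0.11 SE), MCM5 (-0.28 ± 0.11), CDC6 (0.26 ± 0.10), FEN1 (0.24 ± 0.09) and RRM2 (0.21 ± 0.09). The 95% intervals of all 48 members lay within 2-fold, with bounds between -0.70 and 0.59 on the log2 scale. These intervals are per gene, are not adjusted for the number of members and rest on the spread described above, so they do not exclude a 2-fold shift. FAS itself had an effect of -0.93 ± 0.17 and the same adjusted p of 0.991, with a 95% interval from -1.32 to -0.55.

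On their main probe sets CCNE2 and CDC6 gave the steadiest log2 ratios of the 48 members over the 3 comparisons. TOP2A was nearly as steady, close to 0 (-0.05, -0.04 and -0.05). CCNE2 encodes cyclin E2, an activator of CDK2 at the start of S phase. It gave 3186 with shRNA4 and 3176 with shRNA6 in HeyA8, against 2520 with pLKO, and 587 with shRNA6 in HepG2, against 467 with pLKO. All 3 knockdown arrays were above the control of their line, by 0.34, 0.33 and 0.32 on the log2 scale. The gene's other probe set gave 0.37, 0.18 and 0.02. CDC6, the factor that loads the MCM helicase onto origins, gave 1879 and 1887 in the HeyA8 knockdowns, against 1567 in the control, and 2526 in the HepG2 knockdown, against 2114. Its log2 ratios were 0.26, 0.27 and 0.26, and those of its other probe set 0.21, 0.30 and 0.09. MCM5, a subunit of that helicase, went the other way, with 1741 and 1996 in the HeyA8 knockdowns, against 2187, and 2007 in the HepG2 knockdown, against 2572. Both HeyA8 ratios of each gene share the control array, and no adjusted p of these genes passed the threshold.

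**Figure D2:**
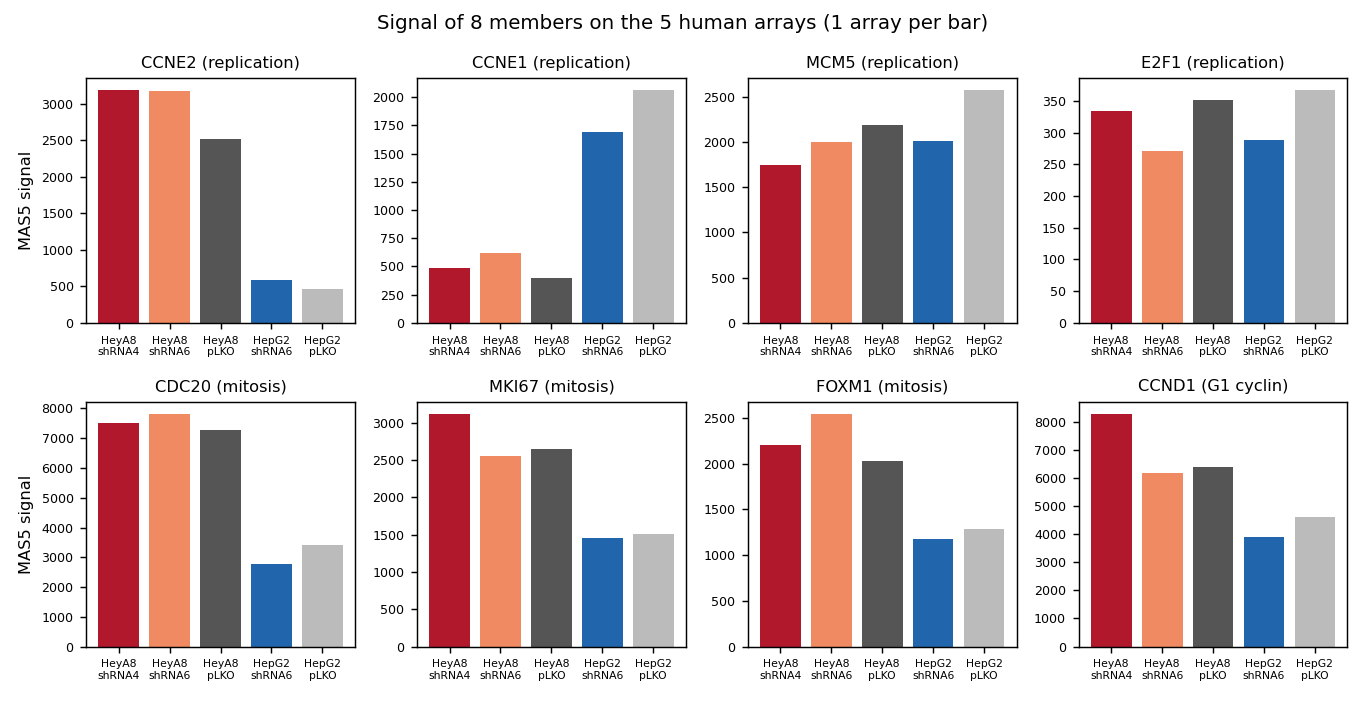
MAS5 signal (y axis, linear from 0) of 8 members on the 5 human arrays (x axis), 1 bar per array, with the knockdown arrays left of the control of their line. The step between the HeyA8 and HepG2 bars exceeds the steps between knockdown and control for CCNE2, CCNE1, CDC20, MKI67 and FOXM1, and for E2F1 and MCM5 the lines overlap.

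Whether the knockdown acted differently in the 2 lines was tested with an interaction term, HepG2 minus HeyA8. It called 0 of 13936 genes (limma, adjusted p 0.999 or above, background 0%; 613 genes had an unadjusted p under 0.05) and 0 of 48 members, none of which had an unadjusted p under 0.05. The estimate was below 0 for 41 of 48 members, 20 of 24 of replication and 20 of 23 of mitosis, and for 7216 of the 13936 genes. The median over members was -0.13, against -0.02 over all genes. Intervals of 42 of 48 members lay within 2-fold. This fit rests on 1 residual degree of freedom, the hairpin difference in HeyA8, and takes HepG2 to vary like HeyA8.

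Several regulators upstream of the members had larger ratios than any member, among them CDK6, CCND2 and CDKN1C in HeyA8. CDKN1A did not exceed the largest member ratio, that of CCNE1 in HeyA8 with shRNA6 (0.62). CDKN1A gave 6111 with shRNA4 and 3787 with shRNA6 in HeyA8, against 4690 with pLKO, and 1262 with shRNA6 in HepG2, against 1901 with pLKO. The log2 ratios were 0.38, -0.31 and -0.59, so the 2 hairpins lay on opposite sides of the control, and the common effect was -0.23 ± 0.22 (limma, adjusted p 0.991). CDK6, a partner kinase of D cyclins, gave 7498 with shRNA4 and 4377 with shRNA6 in HeyA8, against 3192 (1.23 and 0.45). CCND2, cyclin D2, gave 618 with shRNA4 and 155 with shRNA6, against 399 (0.61 and -1.30). CDKN1C, the CDK inhibitor p57, gave 294 and 203, against 426 (-0.52 and -1.02). CDK6, CCND2 and CDKN1C were the only genes of the regulator lists that were bright and reached 2-fold against pLKO. In the shRNA6 comparison CCND2 and CDKN1C were bright only through the pLKO array, whose 75th percentile was 388. Their shRNA6 signals lay below that array's 75th percentile of 371.

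B-MYB, encoded by MYBL2, gave 1219 with shRNA4 and 976 with shRNA6 in HeyA8, against 729 (0.73 and 0.42). CDC25A, a phosphatase that activates CDK2, gave 745 and 739, against 502 (0.56 and 0.54). E2F5 (-0.67) and RBL2 (-0.60), subunits of the DREAM complex, were lowest among its genes with shRNA4, and E2F7, a repressing E2F, was lowest with shRNA6 (-0.47). In HepG2, 16 of 18 genes of the G1 and S phase kinase list lay below 0, with a median of -0.13, against 6291 of all 12167 genes. The largest among bright genes were CDC25B (-0.41), CDK2 (-0.32), SKP2 (-0.30) and CDC7 (-0.27). In HeyA8, 6 of the 18 lay below 0 with either hairpin, against 5672 of 12175 genes with shRNA4 and 5928 of 12152 with shRNA6.

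Further replication and mitosis genes outside the 48 had equally small ratios. Of 34 other replication genes 24, 28 and 15 lay above 0 in HeyA8 with shRNA4, HeyA8 with shRNA6 and HepG2, with medians of 0.08, 0.09 and -0.02. Of 40 other mitosis genes 26, 28 and 21 lay above 0, with medians of 0.06, 0.08 and 0.01, so in HepG2 this list lay near 0 where 20 of the 23 mitosis members lay below it. Over all genes that passed the filter 6503 of 12175, 6224 of 12152 and 5876 of 12167 lay above 0 in the same comparisons. None of the 74 genes reached 2-fold. Of all genes that passed the filter 4.76%, 4.22% and 5.22% did so, and of bright genes 0.730%, 0.393% and 0.887%. Among the largest were the delta polymerase subunits POLD2 in HeyA8 with shRNA6 (0.41) and in HepG2 (0.41) and POLD1 in HepG2 (-0.44), and the kinetochore subunit SPC24 in HeyA8 with shRNA4 (0.64).

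The widest differences among the human arrays lay between the cell lines, with most mitosis members higher in HeyA8 and the replication members on both sides. Of 48 members 21 were higher and 13 lower in HeyA8 than in HepG2 (limma, adjusted p under 0.05, 3 arrays against 2), read against a background of 28.0% of 13936 genes higher and 30.0% lower, 58.0% in all. Of 23 mitosis members 14 were higher and 3 lower, and of 24 replication members 6 were higher and 10 lower. CCND1 was higher by 0.70 ± 0.15 on the log2 scale (adjusted p 0.00411). The median difference was 0.43 over mitosis members and -0.01 over replication members, against -0.05 over all genes. All 5 arrays enter this comparison with their knockdowns, and line, culture and array batch cannot be told apart.

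The E cyclins showed the widest contrast, in opposite directions. CCNE2 gave 2520 to 3186 on the HeyA8 arrays and 467 to 587 on the HepG2 arrays, a log2 difference of 2.41 ± 0.11 (limma, adjusted p 7.1e-07). CCNE1 gave 397, 485 and 615 on the HeyA8 arrays and 1687 and 2063 on the HepG2 arrays, a difference of -1.92 ± 0.20 (adjusted p 7.27e-05). The groups of arrays did not overlap for either gene. The other CCNE2 probe set gave 532 to 689 on the HeyA8 arrays and 101 and 102 on the HepG2 arrays, the same direction, while that of CCNE1 gave 8.42 or less on all 5 arrays, and the mean of the CCNE1 probe sets differed by -1.01.

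Among replication members the GINS subunits and licensing factors were lower in HeyA8. GINS1, a subunit of the helicase-activating GINS complex, gave 2748 to 3469 on the HeyA8 arrays and 7825 and 8146 on the HepG2 arrays (-1.37 ± 0.12, adjusted p 2.52e-05). GINS2 (-1.02), the licensing factor CDT1 (-0.98) and the polymerase subunit POLA1 (-0.77) followed. MCM3, MCM2, MCM7, PCNA and CDC6 were lower, at -0.76 to -0.42, whereas MCM4 (0.62) and MCM6 (0.54), subunits of the same hexamer, were higher in HeyA8, so its genes did not move together. The other replication genes higher in HeyA8 were RRM1 (0.77 ± 0.08), the large subunit of ribonucleotide reductase, RFC4 (0.41) and FEN1 (0.35). Without the HepG2 knockdown array RFC4, MCM6 and CDT1 were not called (limma adjusted p 0.165, 0.0568 and 0.0513). E2F1 was not called, at 0.01 ± 0.19 (interval -0.43 to 0.45), and with the mean of its probe sets the estimate was -0.33. With the mean of all probe sets in place of the brightest, GINS2 and MCM4 were not called (adjusted p 0.206 and 0.0918).

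The mitosis members higher in HeyA8 act at several steps of division. CDC20 gave 7280 to 7820 on the HeyA8 arrays and 2779 and 3425 on the HepG2 arrays (1.30 ± 0.11, adjusted p 2.15e-05). CENPE gave 1833 to 2313 and 913 to 1003 (1.07 ± 0.13, adjusted p 0.000217). MKI67 (0.89), UBE2C (0.87), the ubiquitin carrier of the anaphase-promoting complex, FOXM1 (0.85) and KIF11 (0.81) followed, and CCNB1 was higher by 0.51 ± 0.09. The 3 members lower in HeyA8 were PLK1 (-0.68), a mitotic kinase, BIRC5 (-0.41) and the centromeric histone CENPA (-0.33). These calls are weaker: each was lost when 1 array was left out, with adjusted p values up to 0.0983, 0.104 and 0.238. AURKA and CCNA2 lay at -0.22 and -0.20 and were not called (adjusted p 0.0662 and 0.0766). With quantile normalization both were called lower (limma adjusted p 0.0147 and 0.0255). With the mean of all probe sets CCNA2 was called lower (-0.43, limma adjusted p 0.00397), while AURKA (0.022) and BIRC5 (-0.18) were not called (0.914 and 0.280).

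**Figure D3:**
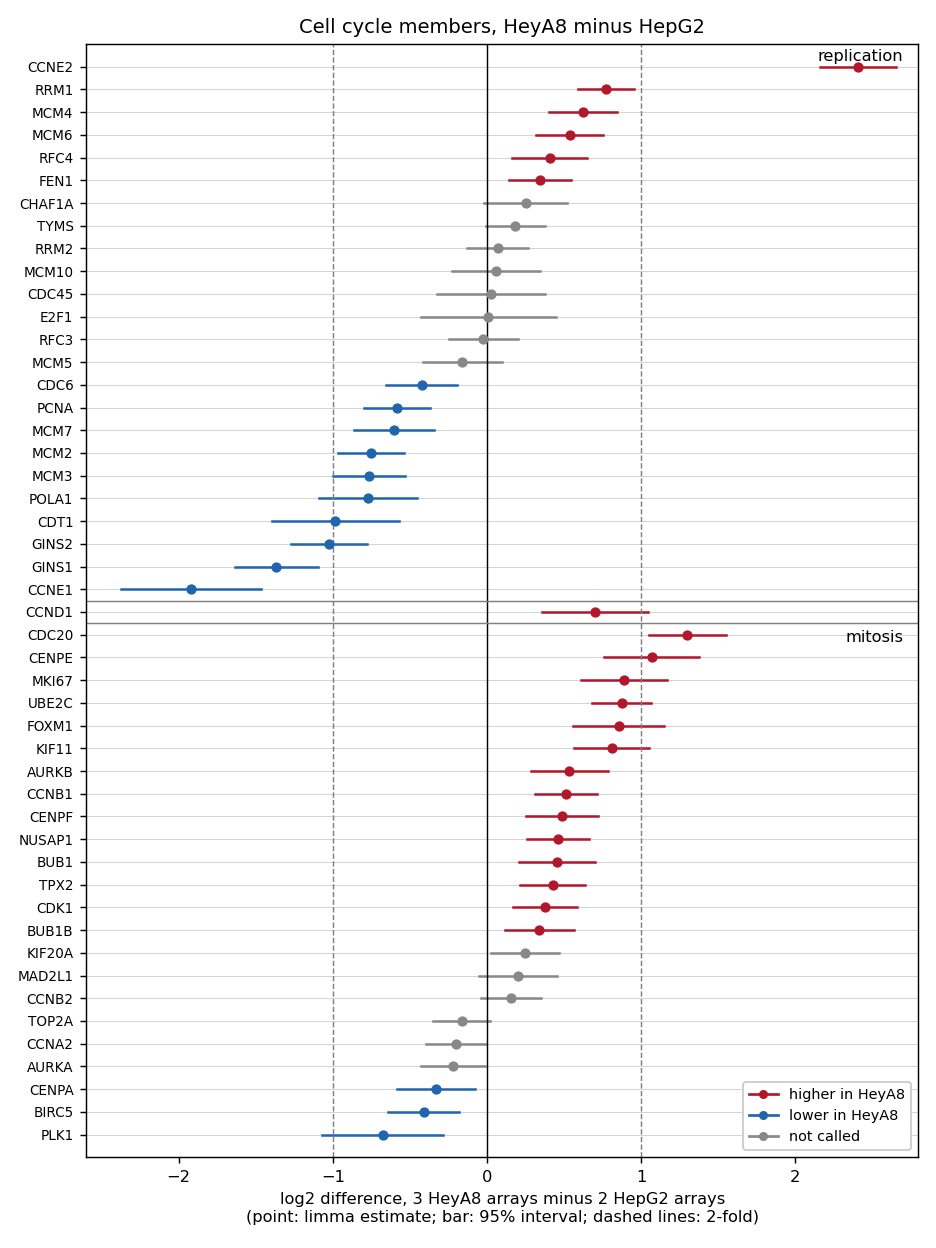
Log2 difference (x axis, points) with its 95% interval (bars) between 3 HeyA8 and 2 HepG2 arrays for each of the 48 members (y axis), with red for higher in HeyA8, blue for lower and grey for not called. The mitosis members lie mainly right of 0 (14 higher, 3 lower), the replication members on both sides (6 higher, 10 lower), and CCNE2 and CCNE1 form the ends.

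Without the HepG2 knockdown array fewer genes were called throughout: 9 mitosis members were higher and 1 lower, 13 of all 48 members were higher, and over all genes 2776 were higher and 2699 lower, against 3903 and 4176 with it. Of the 40 other mitosis genes 30 were higher and 1 was lower in HeyA8, with a median of 0.75. Among them were ECT2 (1.73), which directs cytokinesis, the checkpoint kinase TTK (1.64), the condensin subunit SMC4 (1.53) and the kinetochore subunit NDC80 (1.44). Of 34 other replication genes 9 were higher and 6 lower, with a median of 0.13, and these counts were 2 and 4 without the HepG2 knockdown array. Regulators differed widely between the lines: CDKN1A was higher in HeyA8 by 1.65 ± 0.22 and E2F7 by 2.20 ± 0.18, while E2F2 (-1.49) and SKP2 (-1.10) were lower. No signal here measures how fast either line divides.

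In mouse liver few members had high signals. Of 46 members 7 lay above the 75th percentile of the knockout array and 6 above that of the wild-type array, against 37.4% and 37.5% of all genes. Of 22 mitosis members 10 were above the array median in the knockout and 9 in the wild type, and of 23 replication members 19 were so in each liver; probes differ in affinity, so these counts do not compare transcript amounts between genes. The highest signals were those of Mcm10 (5847 in the knockout and 5396 in the wild type), the sliding clamp Pcna (3644 and 3846), Ccnd1 (1532 and 1394) and Mcm7 (1001 and 811). The Mcm10 level belongs to 1 probe set, and another of the gene's 3 gave 180 in the knockout and 119 in the wild type. Where a member differs between the livers, fewer cells of a type and less RNA per cell cannot be told apart.

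**Figure D4:**
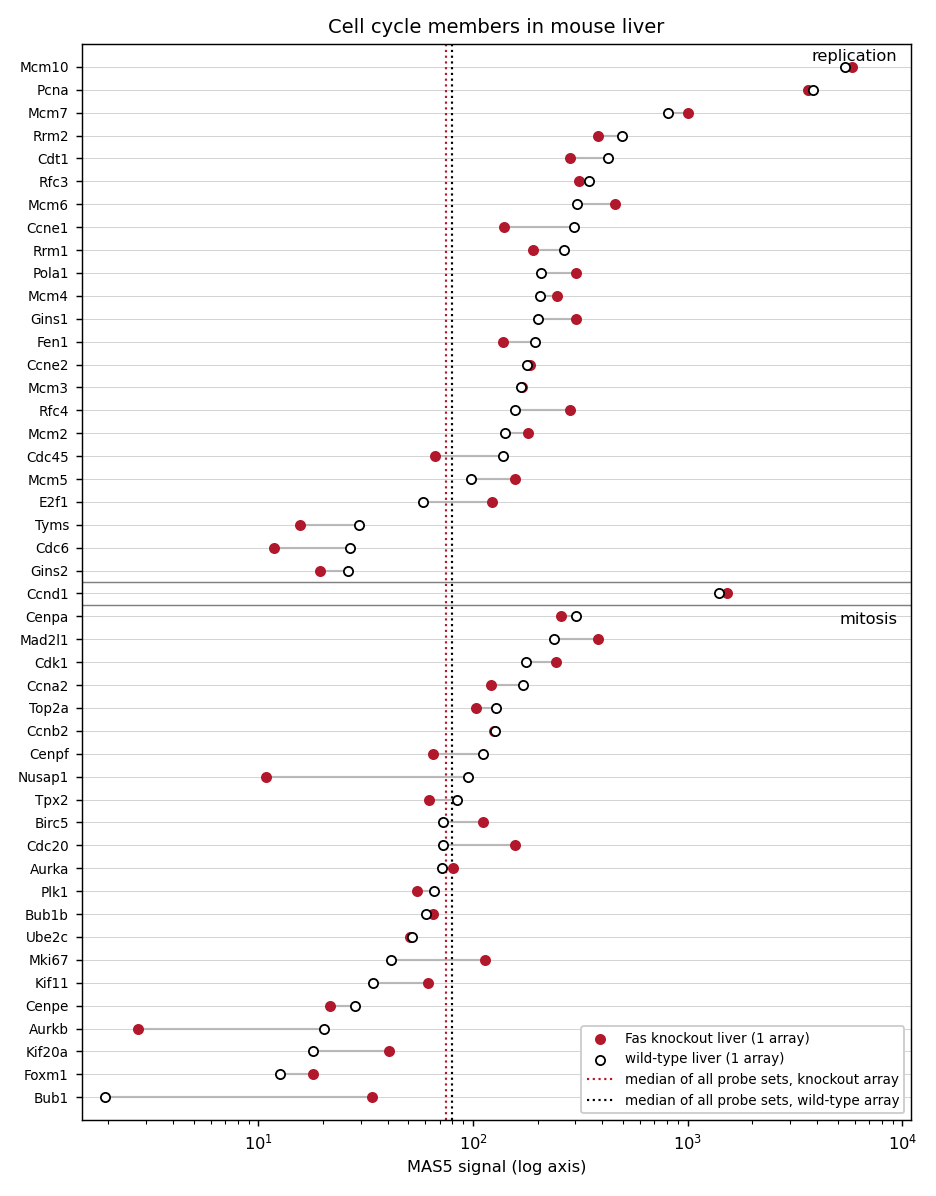
MAS5 signal (x axis, log scale) of 46 members (y axis) in Fas knockout liver (red) and wild-type liver (open circles), 1 array each, with the median of all probe sets of each array as a dotted line. Most replication members lie right of the medians, most mitosis members near or left of them, and the widest gaps are those of dim genes.

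Of the 46 members 34 passed the filter on low signal in the comparison of knockout with wild-type liver, 20 of replication, 13 of mitosis and Ccnd1. At least 2-fold higher was 1 member and at least 2-fold lower was 1, read against 1.77% of 12047 genes higher and 2.57% lower. Mki67, the antigen of the Ki-67 proliferation stain, gave 113 in the knockout and 41.7 in the wild type (log2 ratio 1.10), and it passed the filter only through the knockout array. Nusap1, a spindle protein, gave 10.8 and 94.4 (-1.87), and it passed only through the wild-type array. Neither gene has another probe set that passed, and both are too dim to be counted as bright. Other pseudocounts and filters moved these counts between 0 and 3 in either direction.

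The replication members had a median log2 ratio of 0.08, with 12 above and 8 below 0, and the mitosis members one of -0.02, with 6 above and 7 below, while the median of all genes was -0.02. Over all 12047 genes that passed the filter 5700 lay above 0 and 6347 below. Under 8 alternatives the replication median ran from -0.03 to 0.16 and changed sign in 1. The mitosis median ran from -0.11 to 0.64 and changed sign in 5, so its direction is not settled. The median size of the ratio over the members was 0.44, against 0.18 over all genes that passed the filter and 0.13 over bright genes. These sets are not matched for signal. Of the 46 members 15.2% lay above the 75th percentile in the knockout and 13.0% in the wild type, against 37.4% and 37.5% of all genes. Dim genes give wider ratios, and a set matched for signal was not tested. Among bright replication members the largest ratios were those of Mcm6 (458 in the knockout and 304 in the wild type, 0.56), Cdt1 (282 and 423, -0.55), Rrm2 (383 and 494, -0.35), Mcm7 (0.30) and Mcm10 (0.12). Mad2l1 was the only bright mitosis member, with 381 in the knockout and 238 in the wild type (0.64). Mad2l1 and Mcm6 were bright only through the knockout array, whose 75th percentile was 360. Cdt1 was bright only through the wild-type array, whose 75th percentile was 381. Each of these 3 was thus picked through the array where it was higher, and brightness lends its ratio no support.

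Some dim members were read by more than 1 probe set that passed the filter. E2f1 gave 122 in the knockout and 58.5 in the wild type on 1 probe set (0.85) and 107 and 48.1 on another (0.90). Both passed only through the knockout array, and the third that did not pass gave -0.08. Ccne1 gave 139 and 296 (-0.99) and, on the other probe set, 51.8 and 228 (-1.78), which passed only through the wild-type array. Rfc4 gave 0.77 and 0.58. Cdc20 gave 157 and 72.7 on 1 probe set (0.93) and 160.5 and 162 on another (-0.01), the first of which passed only through the knockout array. Rrm1 gave -0.45 and 0.44 on the 2 probe sets that passed, with opposite signs. Of 27 other member probe sets that passed the filter 19 had the sign of the main one. Over all 61 member probe sets that passed, 1 was at least 2-fold higher and 4 lower. Foxm1, at 18.0 in the knockout and 12.6 in the wild type, lay below the median on both arrays, while another of its probe sets gave 24.6 and 87.3 (-1.25).

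Cdkn1a gave 226 in the knockout and 153 in the wild type (0.50) and was not bright. The securin Pttg1 had a signal of 7006 in the knockout and 4907 in the wild type (0.51). The kinase Wee1 gave 636 and 984 (-0.61), and the uracil glycosylase Ung gave 294 and 463 (-0.62). Markers of blood and immune cells, which can hold dividing cells, were read beside these values. The summed signal of T and NK cell genes was 366 in the knockout and 359 in the wild type. Of the 7 genes 1 lay above the array median in each, Ncr1 in the knockout and Cd5 in the wild type. For neutrophil genes the sum was 592 in the knockout and 811 in the wild type (3 of 4 above the median in each). The sum was 351 and 491 for B and plasma cell genes (3 of 5 above the median in each), 14802 and 18385 for macrophage genes (6 of 6 in each) and 1926 and 1358 for erythroid genes (2 of 3 in the knockout and 1 of 3 in the wild type). Their part in the member values was not tested.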

How the data were processed

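Total RNA of 7 samples was read on Affymetrix arrays, 5 human and 2 mouse. The authors deposited MAS5 intensities on a linear scale, per the submitters' processing notes; no source used here gives the software version. The 2% trimmed mean was 500.1 on the human arrays, so signals are relative to a scaling of the whole array. Precision is limited by how few arrays there are. The 62 human and 64 mouse control probe sets were left out.

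Probe sets were named from the platform annotation where it gave 1 symbol, and _x_at probe sets stood for a gene only where there was no other. The pseudocount was the table's 25th percentile. Genes below the median on all compared arrays were filtered out. Knockdown and cell line effects were fitted with limma 3.58.1 (R 4.3.3), with a trended prior variance (2 residual and 5.78 prior degrees of freedom) and Benjamini-Hochberg adjustment over 13936 genes. The interaction had a fit of its own with 1 residual degree of freedom. Only the common knockdown effect was scored on simulated data, with the outcome not reported here, and the cell line and interaction effects were not scored. Members and lists were chosen with earlier results of these data known. Named were FAS, CDKN1A, E2F1, FOXM1, CCND1, MKI67, CCNE1 and CCNB1, in each comparison the 5 bright members of each group with the largest ratio (5 per direction between the cell lines), and at most 4 genes per other list. Further genes, named where probe sets disagreed, an unadjusted p was under 0.05 or they set a count or a level, were picked after their values were seen, as were the 4 printed promoters. Alternatives were other pseudocounts, scalings, filters, probe set rules and size thresholds, fits lacking the variance trend or the line term, and fits that left out 1 array. Python 3.11.15 with pandas 2.3.3, scipy 1.17.1 and matplotlib 3.10.9 did the rest.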

Additional observations from a re-analysis of the deposited data

How the results depend on the processing

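No paired analysis was possible because the labels give no replicate numbers shared between groups; the cell line term already sets each knockdown against the control of its line. With 1 array per group the size counts have no error, and signal over background limits the dim members. The fit of the common knockdown effect called 0 of 48 members under 15 alternatives, and its effects ranged from 0.25 to 0.73 for CCNE2, 0.19 to 0.26 for CDC6 and -0.36 to -0.20 for MCM5 (lowest limma adjusted p 0.883). The interaction called 0 members under 9 alternatives. For CDKN1A the common effect of -0.23 was 0.045 with no cell line term and ran from -0.59 to 0.037 when 1 array was left out.

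In mouse liver the counts of members at least 2-fold higher and lower, 1 each, were 3 and 3 with a pseudocount of 1 (all genes 313 and 446, against 213 and 310), 0 and 0 with the table median as pseudocount (41 and 97), and 0 and 0 with only genes above the 75th percentile (18 and 26). The higher count was 2 with quantile normalization, equal medians or no filter (all genes 246, 250 and 690), 0 at 3-fold (71) and 5 at 1.5-fold (589). The lower count was 2 with _x_at probe sets allowed (316) and 4 at 1.5-fold (919). In HeyA8 with shRNA6, 1 member was higher at 1.5-fold. The HepG2 mitosis median was -0.18 with equal medians.

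Between the cell lines, leaving out 1 array gave 13 to 21 members higher, 9 to 14 mitosis members higher and 0 to 3 lower, while all genes ranged over 2776 to 3813 higher and 2699 to 4223 lower. Mitosis members lower were 6 with quantile normalization and 1 with no variance trend. With the mean of all probe sets AURKA turned to 0.022 and E2F1 to -0.33, and E2F1 ran from -0.071 to 0.074 when 1 array was left out. CCND1 was not called without the HepG2 knockdown array (limma adjusted p 0.135). The cause of these changes was not tested.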
